A study of Mus musculus with 6 samples.

Results

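The 9 liver-enriched transcription factors Hnf4a, Foxa1, Foxa2, Foxa3, Cebpa, Cebpb, Onecut1, Nr5a2 and Prox1 were taken by gene symbol from an expression table of 25102 genes of mouse liver. All 9 were in the table, and 8 had a mean of at least 1 FPKM (fragments scaled by gene length and by each library's mapped fragments) and entered the test. Onecut1 lay under that level and is given by its values alone.

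The study compared poly(A) RNA from the livers of C57BL/6J mice, all male and aged 2 weeks when the treatment began, in a control group of 3 and a DEN+CCl4 group of 3. The treated mice received diethylnitrosamine (DEN), a carcinogen that hepatocytes activate, as 1 intraperitoneal dose of 1 mg/kg, and from about 6 weeks later carbon tetrachloride (CCl4), a hepatotoxin, at 0.2 mL/kg 2 times per week for at most 14 weeks. The regimen serves as a model of hepatocellular carcinoma. The labels name no vehicle for the controls, no genetic modification, no age at collection, and no origin of the treated tissue in tumour or surrounding liver. They identify the livers by replicate number alone, so each p-value reflects only the variation among these 6 libraries, which may be technical.

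Liver-enriched transcription factors bind the enhancers and promoters of hepatocyte genes in combination, and many of them bind the promoters of one another. FOXA proteins are pioneer factors that open chromatin, the nuclear receptor HNF4A and the leucine-zipper protein CEBPA maintain much of the adult metabolic programme, and CEBPB acts in the acute-phase and regenerative response. ONECUT1, NR5A2 and PROX1 act in liver development and in the control of bile acid and lipid genes.

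Promoter sequence is shown for 3 factors: Cebpa and Foxa3, the members whose groups did not overlap on at least one scale used here, and Hnf4a, whose upstream start lies within an antisense gene described further on. Each sequence holds the 250 bases before a RefSeq start on GRCm38.p6, written 5′ to 3′ on the gene's strand, with capitals marking a motif match.
Hnf4a, upstream start, chr2:163506607-163506856, plus strand: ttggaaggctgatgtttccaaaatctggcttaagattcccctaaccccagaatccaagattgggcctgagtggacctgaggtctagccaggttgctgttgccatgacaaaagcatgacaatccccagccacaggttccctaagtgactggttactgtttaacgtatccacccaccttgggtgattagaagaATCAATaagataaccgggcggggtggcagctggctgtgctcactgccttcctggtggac
Hnf4a, downstream start, chr2:163546905-163547154, plus strand: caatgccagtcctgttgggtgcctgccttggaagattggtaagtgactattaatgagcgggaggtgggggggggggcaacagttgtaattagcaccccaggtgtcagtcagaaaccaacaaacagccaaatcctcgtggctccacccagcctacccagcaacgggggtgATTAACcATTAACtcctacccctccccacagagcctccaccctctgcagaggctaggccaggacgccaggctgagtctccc
Cebpa, chr7:35119043-35119292, plus strand: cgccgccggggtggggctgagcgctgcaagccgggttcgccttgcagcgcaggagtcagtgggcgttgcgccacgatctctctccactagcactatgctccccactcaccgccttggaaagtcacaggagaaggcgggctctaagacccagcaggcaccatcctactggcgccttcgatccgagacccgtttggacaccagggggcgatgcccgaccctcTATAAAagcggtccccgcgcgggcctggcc
Foxa3, chr7:19023540-19023789, minus strand: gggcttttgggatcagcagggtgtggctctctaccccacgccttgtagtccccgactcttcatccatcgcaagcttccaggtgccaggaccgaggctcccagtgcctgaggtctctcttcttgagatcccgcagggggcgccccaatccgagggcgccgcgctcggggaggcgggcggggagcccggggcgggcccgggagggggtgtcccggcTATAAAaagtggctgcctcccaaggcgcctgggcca
The Cebpa and Foxa3 sequences each hold TATAAA on the gene's strand, with its first base at -30 and -36 from the start. The sequence at the upstream Hnf4a start holds ATCAAT, the core bound by ONECUT factors, at -59. The one at the downstream start holds GTTAAT, the core bound by HNF1, on the opposite strand at -81 and -74, where it reads ATTAAC.

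RefSeq windows from 250 bases before to 50 bases after a start matched all 9 members, with 14 windows among them. The motifs searched on both strands were CAAAGTCCA (HNF4), TGTTTAC (FOXA), TTGCGCAA (CEBP), ATCAAT (ONECUT), CAAGGTCA (NR5A2), GTTAAT (HNF1) and TATAAA (the TATA box), the last 2 added after the sequences were read. No member window held the HNF4, CEBP or NR5A2 letters, which occur in 0.475%, 0.183% and 1.56% of all 32851 windows. The FOXA letters were present in 1 member window, that of Foxa1 at -141, against 3.65% of all windows. The ONECUT letters were present in 2 member windows, Hnf4a and Foxa2, against 7.54%. The HNF1 letters were present in 3 member windows, of Hnf4a, Foxa2 and Nr5a2, against 7.1%. The TATA letters were present in 6 of 14 member windows against 13.6% of all windows. They lay on the gene's strand before the start in Cebpa (-30) and Foxa3 (-36) alone. In Cebpb they lay after the start, with the first base at 22. In Nr5a2 (-181), Foxa2 (-208) and Prox1 (-34) they lay on the opposite strand. As the HNF1 and TATA motifs were added after these sequences were read, neither count is read as an excess. These are letter matches and not measured binding.

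Values of most genes were low in DEN+CCl4 replicate 3. Of the 8528 tested genes 83.9% lay below all 3 controls in that library, against 11.9% in replicate 1 and 22.7% in replicate 2, and mitochondrially encoded genes took 64.2% of its FPKM against 26.6% to 43.0% in the other 5 libraries. FPKM is relative to the library's total, so each value also depends on the share taken by other genes. The part of the mitochondrial share in the low values of replicate 3 was not tested. Each member is given as deposited and after median-ratio scaling. That scaling divides each library by the median ratio of its genes to their geometric mean over the libraries. The median difference over all tested genes was -0.27 (log2) as deposited and 0.01 after scaling. After rescaling without mitochondrial genes it was -0.14. In bulk liver, fewer cells of a type and less RNA per cell cannot be told apart.

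No member passed the test across all genes. With limma on log2(FPKM + 1) and Benjamini-Hochberg adjustment, 0 of the 8 tested members were called at an adjusted p under 0.05, against 1.48% of all tested genes (126 genes, with 0.833% higher and 0.645% lower). Cebpb, lower in the treated livers, was the 1 member at an unadjusted limma p under 0.05. Of the 8528 tested genes 216 were higher and 432 lower at that level. On values after median-ratio scaling, limma called 0 members and 0 genes in all. Cebpa lay below every control in each DEN+CCl4 library on both scales, and Foxa3 lay above every control in each DEN+CCl4 library after scaling. As deposited, 1 of the 9 members did not overlap between groups, against 8.36% of all tested genes, with 0 higher (background 3.01%) and 1 lower. After scaling 2 did not overlap, against 14.2%. Without DEN+CCl4 replicate 3, 4 members were higher without overlap as deposited (Hnf4a, Foxa2, Foxa3 and Prox1), against 17.7% of all tested genes, and 1 was lower (Cebpa), against 5.45%. After scaling without that library 2 were higher (Hnf4a and Foxa3), against 11.3%, and Cebpa was lower, against 9.9%.

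**Figure D1:**
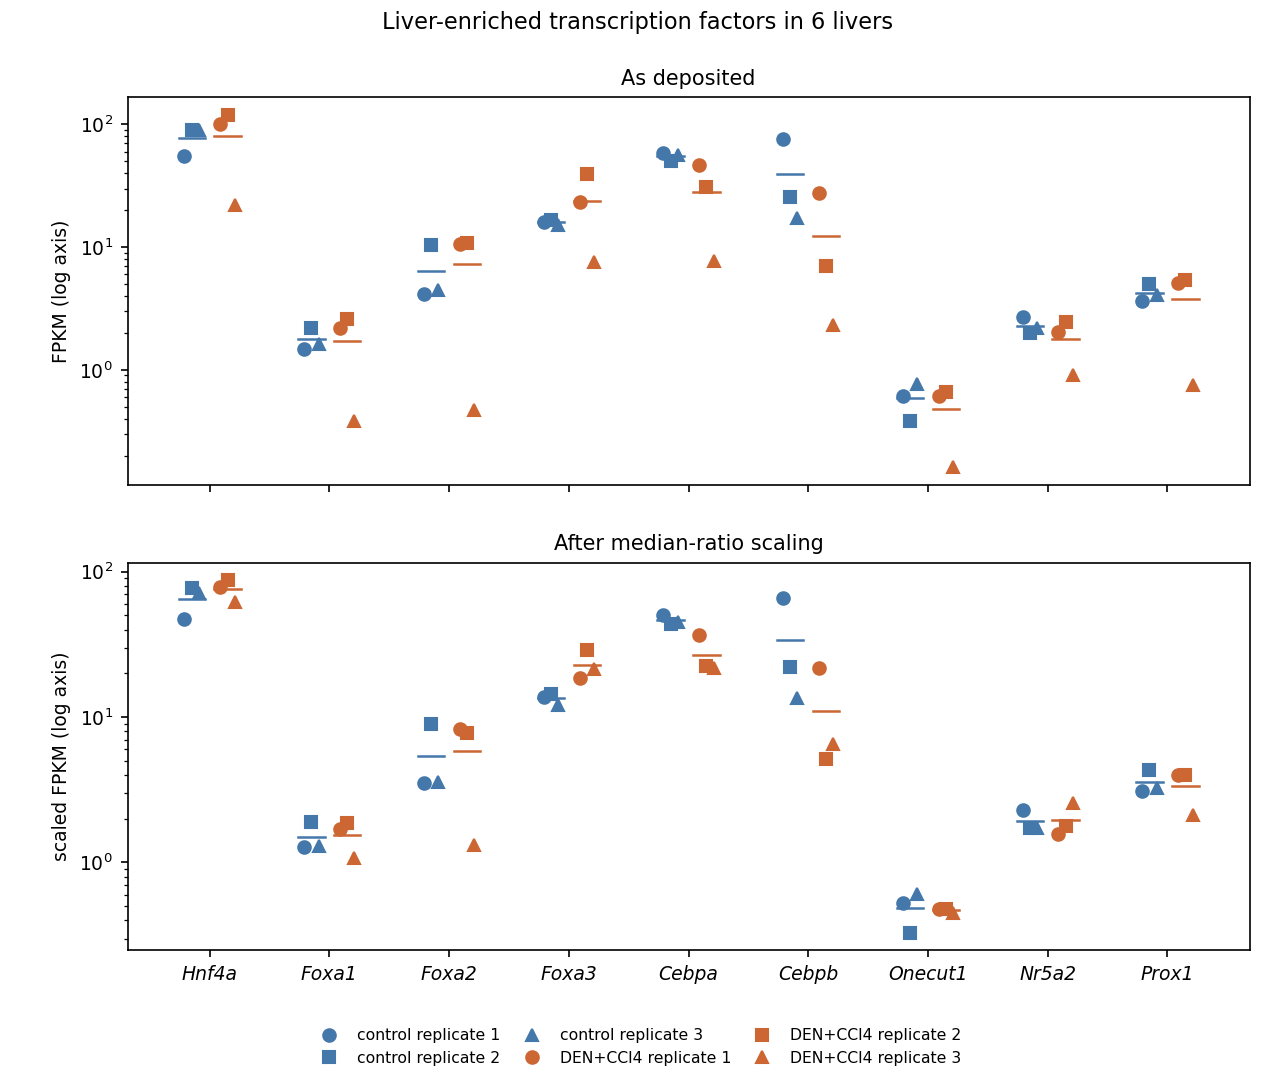
FPKM of the 9 factors in each of the 6 libraries (log axis), as deposited in the upper panel and after median-ratio scaling in the lower panel; points are libraries, shapes are replicates and horizontal bars are group means. DEN+CCl4 replicate 3 is the lowest library for all 9 factors as deposited, and after scaling the Cebpa and Foxa3 groups do not overlap.

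The levels of the factors spanned a wide range in the controls. By mean FPKM the order was Hnf4a (78.1), Cebpa (55.2), Cebpb (39.8), Foxa3 (16.0), Foxa2 (6.34), Prox1 (4.24), Nr5a2 (2.29), Foxa1 (1.77) and Onecut1 (0.583). The control ranges of neighbours overlapped between Hnf4a and Cebpa, Cebpa and Cebpb, Foxa2 and Prox1, and Nr5a2 and Foxa1. Foxa2 was nevertheless above Prox1 in every control library. The ranges did not overlap between Cebpb and Foxa3, Foxa3 and Foxa2, Prox1 and Nr5a2, or Foxa1 and Onecut1. In the DEN+CCl4 group all 8 neighbouring pairs had overlapping ranges. Compared within libraries, Foxa3 was above Foxa2, and Foxa1 above Onecut1, in all 6. The order held in 5 for Hnf4a and Cebpa, Cebpa and Cebpb, Foxa2 and Prox1, and Prox1 and Nr5a2. It held in 4 for Cebpb and Foxa3 and in 3 for Nr5a2 and Foxa1. Within single libraries Hnf4a ranked first of the 9 in 5 libraries, and in control replicate 1 Cebpb ranked first. Onecut1 ranked last in all 6. Foxa3 had rank 4 in every control and rank 2 in DEN+CCl4 replicate 2, above Cebpa.

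Hnf4a, the nuclear receptor that sustains much of hepatocyte gene expression, was at 55.3, 89.7 and 89.4 FPKM in control replicates 1 to 3 and at 100, 120 and 22.1 FPKM in the 3 treated livers, in the order of their replicate numbers. The group means were 78.1 ± 19.8 and 80.8 ± 51.7 FPKM (SD, n = 3 each). DEN+CCl4 replicates 1 and 2 were above every control and replicate 3 was below every control, so the groups overlapped. The log2 difference was -0.23 (SE 1.00, limma adjusted p = 0.996). After scaling the values were 47.4, 77.5 and 71.0 in the controls and 78.7, 87.4 and 62.2 in the treated livers. On that scale the difference was 0.23 (SE 0.41, limma adjusted p = 0.849), so the direction turned with the scaling. Leaving out DEN+CCl4 replicate 3 gave 0.52 as deposited and 0.36 after scaling.

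The 5 genes whose scaled values followed Hnf4a most closely over the 6 libraries were Kdm2a (Pearson r = 0.984), Csnk1d (0.982), Srf (0.977), Zc3h8 (0.976) and Mterf3 (0.972), out of 7654 candidates. These are correlations over 6 points that share library scaling, chosen as the highest of many, and carry no p.

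The FOXA genes encode forkhead proteins that bind overlapping sites. Foxa3 was at 16.1, 16.8 and 15.1 FPKM in the controls and at 23.5, 39.8 and 7.62 FPKM in the 3 treated livers, in the order of their replicate numbers. The controls were within 2 FPKM of each other, DEN+CCl4 replicates 1 and 2 were above all of them, and replicate 3 was below all of them. The log2 difference as deposited was 0.27 (SE 0.83, limma adjusted p = 0.996). After scaling Foxa3 was at 13.8, 14.5 and 12 in the controls and at 18.4, 29.0 and 21.4 in the treated livers. Every treated liver was then above every control, by 0.71 in log2 (SE 0.32, unadjusted p = 0.0582, limma adjusted p = 0.474). Non-overlap in that direction was found in 7.63% of all tested genes after scaling.

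Foxa2 was at 4.11, 10.4 and 4.47 FPKM in the controls and at 10.6, 10.7 and 0.470 FPKM in the treated livers. Control replicate 2 lay near DEN+CCl4 replicates 1 and 2, and DEN+CCl4 replicate 3 lay far below every other library. The log2 difference was -0.22 (SE 0.64, limma adjusted p = 0.996), and 0.77 without DEN+CCl4 replicate 3. After scaling replicate 3 remained the lowest, at 1.32 against 3.52 to 9.02 in the other 5 libraries, with a difference of -0.04. Foxa1 was at 1.49, 2.19 and 1.63 FPKM in the controls and at 2.18, 2.57 and 0.380 FPKM in the treated livers. Its groups overlapped, with a log2 difference of -0.14 (SE 0.45, limma adjusted p = 0.996) as deposited, 0.03 after scaling and 0.29 without DEN+CCl4 replicate 3.

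Foxa3 made up the largest part of the summed FOXA FPKM in each library. Its share was 74.2%, 57.1% and 71.3% in the controls and 64.8%, 74.9% and 90.0% in the treated livers, so the groups overlapped. Foxa2 supplied 19.0%, 35.5% and 21.1% in the controls and 29.3%, 20.2% and 5.55% in the treated livers. The Foxa1 share was 6.88% to 7.68% in the controls and 4.49% to 6.00% in the treated livers, with no overlap. The nearest measure over all genes, a lower log2 ratio to Foxa3 without overlap, held for 24.4% of 8527 genes. These shares do not depend on the scaling of a library, and no test was made of them.

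Cebpa encodes a leucine-zipper factor of quiescent hepatocytes that promotes gluconeogenic and urea-cycle genes and restrains proliferation. It was at 58.4, 50.7 and 56.7 FPKM in the controls and at 46.5, 30.7 and 7.76 FPKM in the 3 treated livers, in the order of their replicate numbers. The group means were 55.2 ± 4.02 and 28.3 ± 19.5 FPKM (SD, n = 3 each), and every treated liver was below every control. Non-overlap in that direction was found in 5.35% of all tested genes. The log2 difference was -1.25 (SE 0.92, unadjusted p = 0.178, limma adjusted p = 0.955). The exact two-sided permutation test gave p = 0.1, the smallest possible with 3 against 3.

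After scaling Cebpa was at 50.02, 43.8 and 45.0 in the controls and at 36.4, 22.4 and 21.8 in the treated livers. The groups again did not overlap, which held for 6.52% of all tested genes in that direction, and the difference was -0.80 (SE 0.37, unadjusted p = 0.0624, limma adjusted p = 0.477). Without DEN+CCl4 replicate 3 the difference was -0.53 as deposited and was lower in both remaining livers. DEN+CCl4 replicates 2 and 3 lay close together after scaling and replicate 1 lay nearer the controls. Of the 9 factors, Cebpa was the one whose treated libraries were all below the controls both as deposited and scaled.

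Cebpb encodes a related factor induced by inflammatory cytokines and during regeneration. It was at 76.4, 25.8 and 17.1 FPKM in the controls and at 27.6, 7.06 and 2.31 FPKM in the treated livers. Control replicate 1 was the highest of the 6 libraries, DEN+CCl4 replicate 1 was within the control range, and DEN+CCl4 replicates 2 and 3 were below every control. The log2 difference was -1.87 (SE 0.82, unadjusted p = 0.0240, limma adjusted p = 0.455), the largest in size of the 9 members. After scaling the difference was -1.48 (SE 0.69, limma adjusted p = 0.478), with DEN+CCl4 replicates 2 and 3 at 5.15 and 6.48 against 13.6 to 65.5 in the controls. Without DEN+CCl4 replicate 1 Cebpb passed the test, at -2.70 (limma adjusted p = 0.0410), the only member that did so in any setting tried. Without control replicate 1 it was at -1.27 (limma adjusted p = 0.999).

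The high Cebpb value in control replicate 1 stood beside high values of acute-phase genes, looked up after the Cebpb values were seen. Saa1, a serum amyloid gene, was at 683, 2.20 and 3.69 FPKM in the controls and at 160, 5.96 and 1.26 FPKM in the treated livers. Orm2, which encodes an acute-phase glycoprotein, was at 1643, 14.4 and 18.8 FPKM in the controls and at 318, 12.1 and 21.0 FPKM in the treated livers. Both were highest in control replicate 1 and next in DEN+CCl4 replicate 1, the order also seen for Cebpb as deposited. After scaling, Cebpb in control replicate 2 (22.3) was slightly above that in DEN+CCl4 replicate 1 (21.6). Lcn2, another acute-phase gene, was at 149, 1.2 and 1.67 FPKM in the controls and at 79.7, 49.3 and 159 FPKM in the treated livers, and did not follow that order. The summed FPKM of 9 macrophage markers was 117, 51.1 and 41.5 in the controls and 68.9, 43.7 and 40.5 in the treated livers. Of these, Clec4f had means of 27.7 and 11.1 FPKM and Lyz2 of 10.3 and 11.8 FPKM, with overlap. Their part in the Cebpb values was not tested.

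**Figure D2:**
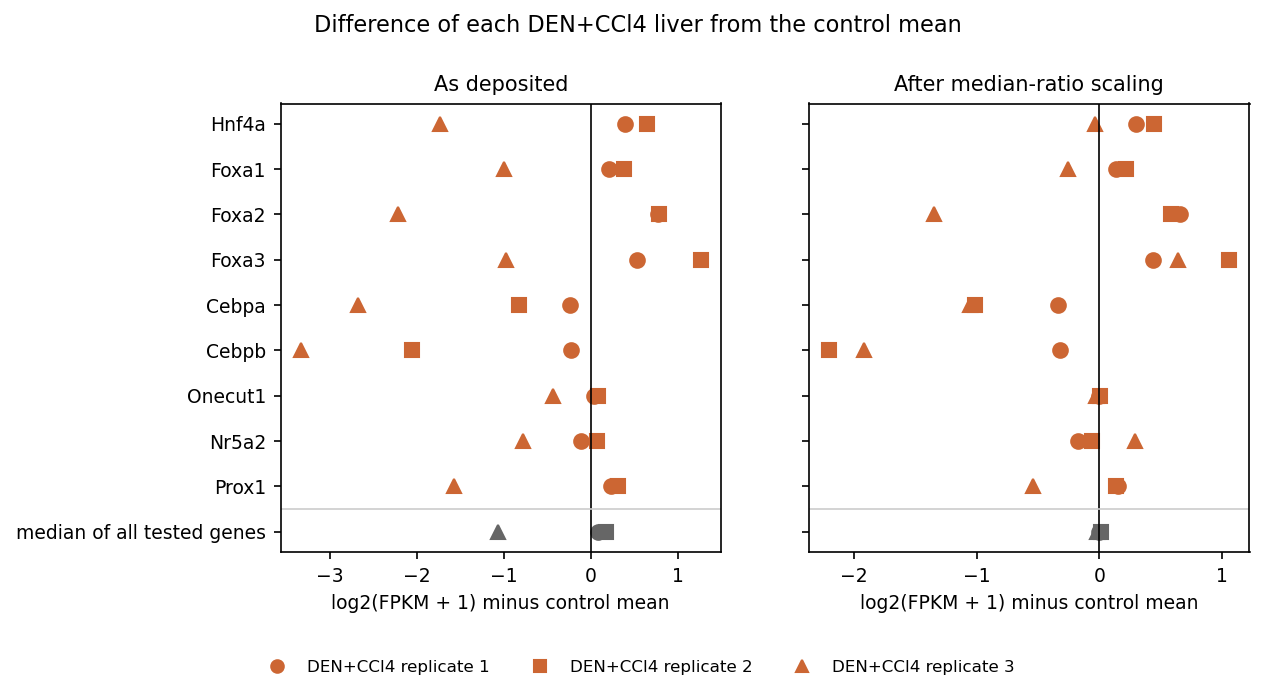
Difference of each DEN+CCl4 library from the control mean in log2(FPKM + 1) for the 9 factors and, in grey, the median of all tested genes, as deposited (left) and after median-ratio scaling (right); shapes are replicates. Cebpa lies left of 0 in all 3 libraries on both scales, and Foxa3 lies right of 0 in all 3 after scaling.

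Of the remaining factors, limma called neither Prox1 nor Nr5a2, and Onecut1 was not tested. Prox1, a homeobox gene of hepatocytes and lymphatic endothelium, was at 3.63, 5.00 and 4.08 FPKM in the controls and at 5.13, 5.44 and 0.750 FPKM in the treated livers. DEN+CCl4 replicates 1 and 2 were just above the highest control and replicate 3 was below the lowest, with a log2 difference of -0.34 (SE 0.57, limma adjusted p = 0.996) as deposited and -0.09 after scaling. Without DEN+CCl4 replicate 3 it was 0.27. That library stayed below every control after scaling, at 2.11 against 3.11 to 4.32. The genes listed as lymphatic markers gave a summed FPKM of 2.86 to 6.83 in the controls and 2.99 to 11.4 in the treated livers, and 2 of the 6 were tested. Reln, in this sum, is also on the stellate cell list, so the list is not specific to lymphatic endothelium. Ccl21a had means of 2.49 and 3.34 FPKM, with overlap. Flt4 had means of 1.16 and 2.46 FPKM, with overlap as deposited and every treated liver higher after scaling. Lyve1, not tested, was at 0.17, 0.30 and 0.12 FPKM in the controls and at 0.76, 1.65 and 1.06 FPKM in the treated livers. Its groups did not overlap on either scale. Pdpn, at most 0.11 FPKM in any library, overlapped on both. Non-overlap with higher treated livers was found in 3.01% of all tested genes as deposited and 7.63% after scaling. These values do not measure the amount of lymphatic endothelium, and their part in the Prox1 values was not tested.

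Nr5a2, a nuclear receptor of bile acid and cholesterol genes, was at 2.69, 2.00 and 2.18 FPKM in the controls and at 2.02, 2.45 and 0.91 FPKM in the treated livers. As deposited, DEN+CCl4 replicates 1 and 2 were within the control range and replicate 3 was below it. The log2 difference was -0.27 (SE 0.48, limma adjusted p = 0.996) as deposited and 0.02 after scaling, when DEN+CCl4 replicate 3 was the highest of the 6 at 2.55. Onecut1, a cut-homeobox gene, was at 0.610, 0.380 and 0.760 FPKM in the controls and at 0.610, 0.660 and 0.160 FPKM in the treated livers. Its groups overlapped, and at these levels the log2(FPKM + 1) scale understates any change.

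Across the 9 factors, DEN+CCl4 replicate 1 had 4 above and 1 below all controls as deposited, replicate 2 had 5 above and 2 below, and replicate 3 had 9 below. After scaling the counts were 2 above and 2 below in replicate 1, 2 and 2 in replicate 2, and 2 and 5 in replicate 3. Of all tested genes 11.9%, 22.7% and 83.9% lay below all controls as deposited in replicates 1, 2 and 3. No share over all genes was computed for the other counts, so these have no background beside them. The 8 tested members had a median log2 difference of -0.25 as deposited and -0.01 after scaling, beside -0.27 and 0.01 over all tested genes.

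Ratios between members within a library do not depend on library scaling, apart from the pseudocount. Of 8 ratios planned, that of Cebpa to Hnf4a was the one whose groups did not overlap on the log2(FPKM + 1) scale as deposited. With a pseudocount of 0.1, or after median-ratio scaling, the groups of Foxa1 to Foxa3 did not overlap either. The plain ratio of Cebpa to Hnf4a was 1.06, 0.565 and 0.634 in the controls and 0.463, 0.256 and 0.351 in the treated livers. The treated livers were all below the lowest control, with a log2 difference of -1.02 and an exact two-sided permutation p = 0.1 (0.8 after Benjamini-Hochberg adjustment over the 8 ratios). The log2 ratio to Hnf4a was lower without overlap in 6.07% of 8527 genes. The ratio of Cebpa to Foxa3, chosen after the values were seen and not tested, was 3.63, 3.02 and 3.75 in the controls and 1.98, 0.772 and 1.02 in the treated livers. The ratio to Foxa3 was lower without overlap in 24.4% of the genes.

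The Cebpb to Cebpa ratio was 1.31, 0.508 and 0.302 in the controls and 0.594, 0.23 and 0.298 in the treated livers, with overlapping groups. The Foxa1 to Foxa3 ratio was 0.0927, 0.131 and 0.108 in the controls and 0.0926, 0.0646 and 0.0499 in the treated livers, so the treated livers were all below the controls, replicate 1 by less than 0.001. On the log2(FPKM + 1) scale as deposited the groups overlapped, with a difference of -0.41 (exact two-sided permutation p = 0.2). The difference was -0.68 after median-ratio scaling and -0.64 with a pseudocount of 0.1, without overlap (exact two-sided permutation p = 0.1 for each, the smallest possible). The other 5 planned ratios, of Foxa2 to Foxa3 and of Foxa2, Onecut1, Nr5a2 and Prox1 to Hnf4a, overlapped, with exact two-sided permutation p-values of 0.4 to 1.

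**Figure D3:**
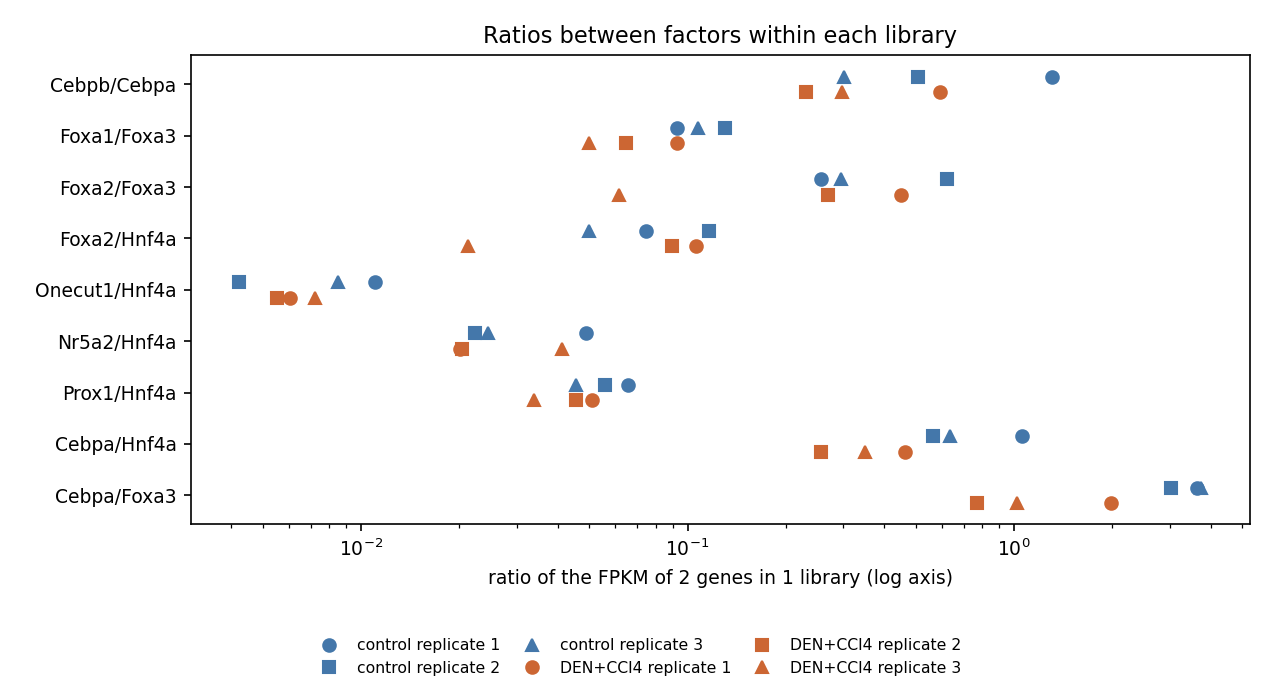
Ratio of the FPKM of 2 factors within 1 library (log axis), for the 8 planned ratios and for Cebpa to Foxa3, chosen after the values were seen; points are libraries, colours are groups and shapes are replicates. The treated libraries lie at 0.256 to 0.463 for Cebpa to Hnf4a, below the lowest control at 0.565.

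Among other liver transcription factors, 31 of 40 were tested and limma called 0 higher and 0 lower, with a median log2 difference of -0.61 as deposited and -0.29 after scaling. The medians over all tested genes were -0.27 and 0.01. Nr1i3, which encodes the xenobiotic receptor CAR, was at 118, 277 and 196 FPKM in the controls and at 95.0, 28.8 and 4.20 FPKM in the treated livers. Every treated liver was below every control (log2 difference -2.92, limma adjusted p = 0.149). Creb3l3, a membrane-bound liver factor, had overlapping groups with means of 71.0 and 41.6 FPKM.

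The closest relatives of the members were mostly low. Of 9 paralogs 7 were in the table, 5 were tested and limma called 0. Hnf4g was at 0 to 0.0200 FPKM in the controls and at 0 to 0.10 FPKM in the treated livers. Cebpe was at 9.14, 12.2 and 8.06 FPKM in the controls and at 9.31, 2.64 and 0.430 FPKM in the treated livers, with overlap and a log2 difference of -1.50 (limma adjusted p = 0.405). Ddit3, a stress-induced member of the CEBP family, was at 2.91, 4.74 and 2.66 FPKM in the controls and at 5.46, 17.5 and 4.70 FPKM in the treated livers (log2 difference 1.02, limma adjusted p = 0.843). Its groups overlapped as deposited and did not overlap after scaling, when every treated liver was higher.

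Lists of genes commonly given as targets of HNF4A, FOXA, CEBP, ONECUT1 and NR5A2 were read from the same fit. The 5 lists held 72 distinct genes, 17 of them in more than 1 list, so the lists are not independent, and Hnf4a is itself on the FOXA and ONECUT1 lists and Foxa2 on the ONECUT1 list. The 29 HNF4A targets had a median log2 difference of -1.52 as deposited and -1.27 after scaling, with 0 called higher and 1 lower. Groups did not overlap for 5 of them after scaling, all lower, against 6.52% of all tested genes in that direction. By library, the scaled medians were -0.10, -1.23 and -2.20 in DEN+CCl4 replicates 1, 2 and 3, while Hnf4a itself stood at 0.30, 0.44 and -0.04.

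The HNF4A target that limma called lower was Cyp8b1, the sterol hydroxylase of cholic acid synthesis, which is also on the ONECUT1 and NR5A2 lists. It was at 107, 54.2 and 65.3 FPKM in the controls and at 38.8, 6.91 and 0.260 FPKM in the treated livers. Every treated liver was below every control, with a log2 difference of -3.32 (SE 0.88, limma adjusted p = 0.0209). Apoa1 and Apoa2, which encode the main proteins of high-density lipoprotein, had the highest levels on the list. Apoa1 had a mean of 11833 FPKM in the controls and 16495 FPKM in the treated livers with overlap, and Apoa2 had means of 19930 and 8301 FPKM with overlap as deposited and none after scaling.

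The 16 FOXA targets tested had a median of -1.05 as deposited and -0.59 after scaling, with 1 called higher and 1 lower. Afp, the fetal serum protein re-expressed in liver tumours, was at 0.26, 0.15 and 0.15 FPKM in the controls and at 0.34, 8.27 and 8.69 FPKM in the treated livers. It rose by 2.06 in log2 (SE 0.45, limma adjusted p = 0.00207), with DEN+CCl4 replicate 1 close to the controls. Cyp2c29, a drug-metabolising cytochrome, was at 79.0, 22.0 and 88.3 FPKM in the controls and at 23.4, 2.77 and 0.34 FPKM in the treated livers. Its log2 difference was -3.46 (SE 0.82, limma adjusted p = 0.00706), with DEN+CCl4 replicate 1 above control replicate 2.

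The 25 CEBP targets had a median of -1.0 as deposited and -0.54 after scaling, with 1 called lower. That gene was Aldh1a1, a retinaldehyde dehydrogenase, at 72.4, 24.0 and 72.2 FPKM in the controls and at 24.1, 4.02 and 1.59 FPKM in the treated livers (log2 difference -2.90, limma adjusted p = 0.0446). Alb, on the CEBP and FOXA lists, had overlapping groups with means of 17540 and 14563 FPKM. Ttr, which encodes the thyroid hormone carrier transthyretin, had overlapping groups with means of 4370 and 2151 FPKM (log2 difference -1.75, limma adjusted p = 0.710). By library the scaled medians of the CEBP list were 0.07, -1.23 and -0.97, beside -0.34, -1.01 and -1.05 for Cebpa. The other lists were also lower in DEN+CCl4 replicates 2 and 3. Their scaled medians in replicates 1 to 3 were -0.08, -0.99 and -0.75 for FOXA and -0.11, -1.19 and -2.51 for ONECUT1. For NR5A2 they were -0.17, -0.73 and -1.06. The part of any factor in the values of its list was not tested.

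The 13 ONECUT1 targets had a median of -1.52 as deposited and -1.27 after scaling, with Cyp8b1 as the 1 called lower. Ttr and Tat, the tyrosine aminotransferase gene, had the highest levels on that list, and Tat had overlapping groups with means of 854 and 371 FPKM (log2 difference -2.36, limma adjusted p = 0.493). The 16 NR5A2 targets had a median of -1.11 and -0.68, with Cyp8b1 called lower and Fgf21, a hepatokine of fasting and stress, called higher. Fgf21 was at 0.05, 0.740 and 0.810 FPKM in the controls and at 0.570, 9.78 and 4.19 FPKM in the treated livers (log2 difference 1.58, limma adjusted p = 0.0480). None of the called genes named here, of any list, passed after median-ratio scaling or without the mean-variance trend in limma, where 0 genes were called in all. Of the alternatives that gave a test, the call of Cyp8b1 remained in 2 of 15, Afp in 3 of 14, Cyp2c29 in 3 of 15, Aldh1a1 in 2 of 15 and Fgf21 in 1 of 14. Leaving out any control or DEN+CCl4 replicate 3 ended each of these 5 calls, and leaving out DEN+CCl4 replicate 2 ended all but that of Afp. Without DEN+CCl4 replicate 3 Cyp8b1 was at -2.05, and without DEN+CCl4 replicate 2 Fgf21 was at 0.94.

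**Figure D4:**
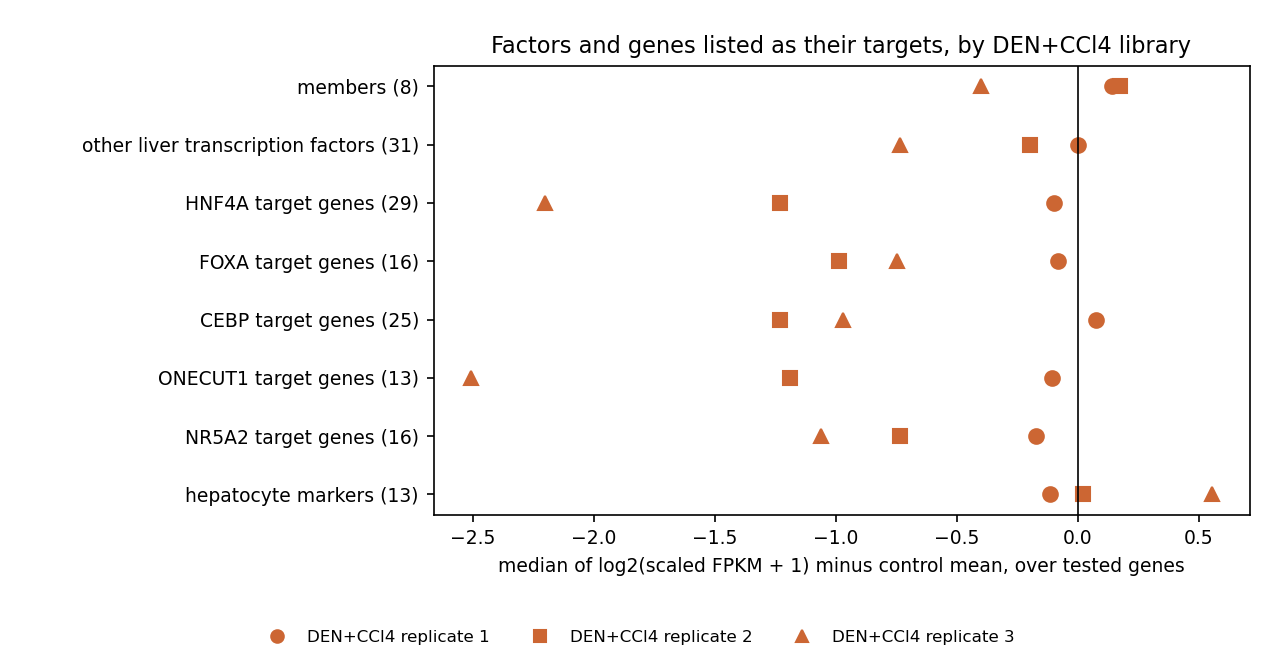
Median over the tested genes of each list of the difference from the control mean in log2(scaled FPKM + 1), for each DEN+CCl4 library; numbers beside the list names are tested genes and shapes are replicates. In replicate 3 the HNF4A target median lies at -2.20 while the hepatocyte marker median lies at 0.56. The FOXA, CEBP, ONECUT1 and NR5A2 target medians there lie at -0.75, -0.97, -2.51 and -1.06. Target and marker lists share genes, among them Apoa1, Alb and Ttr.

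The hepatocyte markers, which check the labelled tissue, were present in every library. Their summed FPKM was 32527 to 52810 in the controls and 18131 to 75116 in the treated livers. Of 14 markers 13 were tested, limma called 0, and the median log2 difference was -0.09 as deposited and 0.39 after scaling. On each scale 1 was lower without overlap, against 5.35% of all tested genes as deposited and 6.52% after scaling. That gene, Cps1, was at 120, 121 and 121 FPKM in the controls and at 111, 43.9 and 12.9 FPKM in the treated livers. Its log2 difference was -1.56 (limma adjusted p = 0.872) as deposited and -1.10 after scaling. Markers of other liver cells that carry some of these factors gave small sums. The 10 cholangiocyte markers summed to 17.4 to 24.1 FPKM in the controls and 23.2 to 52.1 FPKM in the treated livers, and Tspan8, one of the 4 tested, rose by 2.36 in log2 (limma adjusted p = 0.000212). It was at 0 to 0.02 FPKM in the controls and at 0.23, 4.34 and 20.1 FPKM in the treated livers, so replicate 3 held most of the signal. Without that library its difference was 1.35 and its mean was under the filter, and without control replicate 2 the call was lost (limma adjusted p = 0.214). Spp1 had overlapping groups with means of 10.6 and 21.5 FPKM. Epcam, a defining cholangiocyte marker, was at 0.17 to 0.22 FPKM in the controls and at 0 to 0.110 FPKM in the treated livers. Cftr, another, was at most 0.0400 FPKM in any library. Sox9 and Krt19, looked up with these, had higher means in the treated livers. They were 0.370 and 1.51 FPKM for Sox9 and 0.747 and 1.35 FPKM for Krt19, with overlapping groups on both scales.

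The 8 stellate cell and myofibroblast markers summed to 7.47 to 7.76 FPKM in the controls and 15.4 to 34.7 FPKM in the treated livers. Of the 6 tested, 4 did not overlap between the groups, all higher, against 3.01% of all tested genes, and limma called 0. Acta2, the smooth muscle actin gene, and Col3a1, a fibrillar collagen gene, were among the 4, with means of 1.37 and 5.87 FPKM and of 1.15 and 4.69 FPKM. The 7 sinusoidal endothelial markers summed to 16.6 to 27.9 and 11.7 to 37.8 FPKM, with 0 of the 6 tested called. Clec4g had means of 6.50 and 6.46 FPKM and Stab1 of 3.64 and 6.71 FPKM, both with overlap. The 6 neutrophil markers, 5 of them in the table, summed to 1.84 to 6.21 and 5.82 to 23.3 FPKM, and S100a8 rose by 1.63 in log2 (limma adjusted p = 0.0336). That call remained in 2 of 14 alternatives and the difference was 1.08 without DEN+CCl4 replicate 3. S100a9 had overlapping groups with means of 2.27 and 8.93 FPKM. The 7 lymphocyte markers summed to 3.86 to 5.59 and 3.71 to 7.86 FPKM, with 0 of 2 tested called. Cd79a had means of 2.49 and 2.30 FPKM with overlap, and Nkg7 of 0.977 and 1.67 FPKM without. Of the pancreatic acinar markers 1 of 6 was in the table, Prss2, at 0.06 FPKM in DEN+CCl4 replicate 2 and listed at 0 elsewhere. The part of these cells in the members' values was not tested.

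Antisense genes overlap several members, and whether the counting used strand is not given in the sources used here, so reads of a factor and its antisense partner may not be told apart. Hnf4aos, annotated on the minus strand at chr2:163493807-163541720, overlaps Hnf4a by 34913 bases. Its span covers the upstream Hnf4a start shown above and not the downstream start, which lies 40298 bases from the upstream one. Hnf4aos, looked up after values were seen, was at 8.68, 4.84 and 7.79 FPKM in the controls, at 3.61 and 0.190 FPKM in the treated livers of replicates 1 and 2, and listed at 0 in replicate 3. Every treated liver was below every control, with a log2 difference of -2.17 (SE 0.53, limma adjusted p = 0.0097). The call remained in 2 of 14 alternatives, namely under the replicate block and without DEN+CCl4 replicate 1. It was lost on leaving out any other library, with limma adjusted p = 0.163, 0.197 and 0.228 for control replicates 1, 2 and 3 and 0.243 and 0.614 for DEN+CCl4 replicates 2 and 3. After median-ratio scaling the difference was -2.06 (limma adjusted p = 0.453). In DEN+CCl4 replicates 1 and 2 Hnf4a was above every control while Hnf4aos was below every control. The table gives 1 value per gene and does not separate the Hnf4a starts.

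Prox1os, on the plus strand and overlapping Prox1 by 419 bases, was at 8.99, 8.56 and 9.92 FPKM in the controls and at 8.40, 5.98 and 1.10 FPKM in the treated livers. Every treated liver was below every control, though replicate 1 by a small margin, and the difference was -0.97 (limma adjusted p = 0.921). Its FPKM was above that of Prox1 in every library. Tmem189, which overlaps Cebpb by 908 bases on the other strand, was at 3.42 to 5.97 FPKM in the controls and at 1.12 to 3.46 FPKM in the treated livers. A predicted antisense gene overlaps Cebpa by 313 bases. Gm20649, a non-coding RNA gene on the same strand as Onecut1, overlaps it by 29556 bases, so strand alone would not tell their reads apart.

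**Figure D5:**
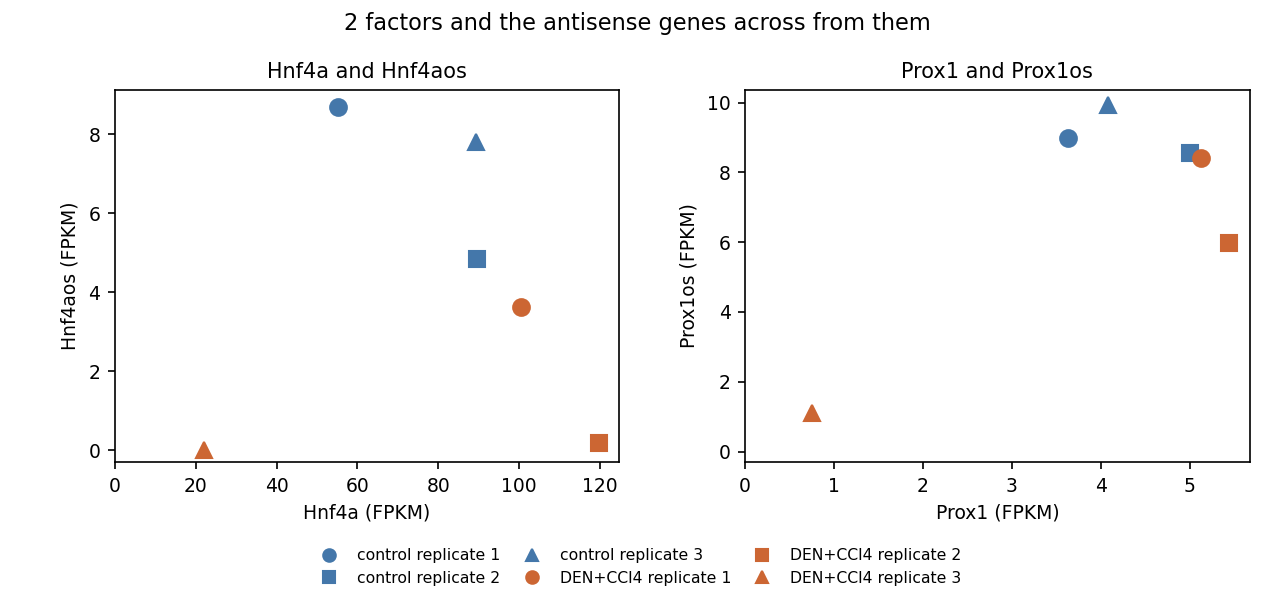
FPKM of Hnf4a against Hnf4aos (left) and of Prox1 against Prox1os (right) in each of the 6 libraries, linear axes, colours for groups and shapes for replicates. All 3 treated libraries lie at or below 3.61 FPKM of Hnf4aos, and the controls lie at 4.84 FPKM or above.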

How the data were processed

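The deposited table holds FPKM per gene, made by the authors, a column for each library, per the file headers. HISAT, StringTie and GRCm38 were used, per the submitters' processing notes; versions, annotation release and strand setting were not given in the sources used here. The table holds no counts and low values lay on no common read step, so depth is unknown and no counting interval could be given. Coordinates came from GENCODE M21 (25051 of 25102 identifiers found), promoters from RefSeq.

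The minimum mean was 1 FPKM, and genes were tested on log2(FPKM + 1) with limma 3.58.1 (R 4.3.3; intensity trend, two-sided, no covariates) and Benjamini-Hochberg adjustment over 8528 genes at a threshold of 0.05. On this scale changes of low genes are understated. The script was tested on simulated data. Fits after median-ratio scaling covered 8350 genes. Other alternatives were a pseudocount of 0.1, no filter, a mean of at least 5 FPKM, rescaling without mitochondrial genes, no trend, the replicate number as a block, and each library left out.

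The members and lists were chosen with earlier results of these data known. Named were the members, up to 4 called genes per list or the 2 highest where fewer than 2 were called, and the 5 genes most like Hnf4a; 1 gene so selected is not reported here. Other named genes were chosen after their values were seen: the antisense and acute-phase genes, Tmem189, Hnf4g, Cps1, Epcam, Cftr, Sox9, Krt19, Lyve1 and Pdpn.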

Additional observations from a re-analysis of the deposited data

How the results depend on the processing

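The number of genes called, 126, depended on the processing. It was 9 with a pseudocount of 0.1, 9 after rescaling without mitochondrial genes, 67 at a minimum mean of 5 FPKM, and 0 with no filter (unadjusted p under 0.05: 540 higher, 568 lower), without the trend (131 and 365), after median-ratio scaling (468 and 428) and after median-ratio scaling without DEN+CCl4 replicate 3 (353 and 246). Leaving out 1 library gave 0 to 392 calls, with 0 without DEN+CCl4 replicate 3 (536 and 149 at an unadjusted p under 0.05) and 392 without DEN+CCl4 replicate 1. Between 0 and 1 member was called on leaving out 1 library, and 0 in every other setting. Cebpa and Cebpb kept a negative difference in every setting, from -1.75 to -0.53 and from -2.70 to -1.14 on leaving out 1 library.

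Directions turned for factors with small differences. After median-ratio scaling Hnf4a was at 0.23, Foxa1 at 0.0296 and Nr5a2 at 0.0178. Adding the removal of DEN+CCl4 replicate 3 gave Hnf4a 0.36, Foxa1 0.18, Foxa2 0.63 and Prox1 0.14. Scaling without control replicate 1, chosen after seeing the data, called 0 genes (242 and 215) and gave Hnf4a 0.0115, Onecut1 0.00587 and Nr5a2 0.10. Leaving out 1 library gave ranges of -0.67 to 0.52 for Hnf4a, -0.39 to 0.29 for Foxa1, -0.73 to 0.77 for Foxa2, -0.22 to 0.90 for Foxa3, -0.21 to 0.0534 for Onecut1 and -0.67 to 0.27 for Prox1. The ratio of Foxa2 to Hnf4a was -0.29 with a pseudocount of 0.1 and -0.27 after scaling, and that of Onecut1 to Hnf4a -0.11 and -0.24. Ranges over left-out libraries were -0.26 to 0.27 for Foxa2, -0.47 to 0.47 for Onecut1, -0.54 to 0.27 for Nr5a2 and -0.25 to 0.0342 for Prox1, each over Hnf4a. The cause was not tested.

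Same-numbered samples did not deviate together in every pair (r = 0.07, 0.42 and -0.15), so they were not treated as pairs. With the replicate block 94 genes were called, 62 higher and 32 lower, 0 of them members. The block ended the calls of Cyp8b1 (limma adjusted p = 0.0754), Aldh1a1 (0.158), Fgf21 (0.0837) and S100a8 (0.0712), and those of Afp, Cyp2c29, Tspan8 and Hnf4aos remained. Depth is unknown, so no counting error can be given for low members such as Onecut1.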
